A study of Homo sapiens with 6 samples.

Results

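The genes described here are MYC and the transcription factor genes around it in the MAX network: MYC, its paralog MYCN, the antagonists MXD1, MXD3, MXD4, MNT and MGA, and MLXIP, which encodes the glucose sensor MondoA. They were taken by symbol from the deposited table, and each of the 8 has 1 row of its own among 6339. ME-1 is a human leukaemia line of the acute myeloid type with the inversion inv(16), and it therefore makes the fusion protein CBFβ-SMMHC. The cells were kept for 6 h with AI-10-49 at 1 µM, a small molecule that binds the fusion protein and blocks its contact with RUNX1, or with the solvent DMSO alone. Each treatment has 3 libraries from independent experiments of this 1 cell line, and all 6 libraries carry the fusion. The series' title places the study on MYC and chromatin, and the comparison asks what the compound did to these transcripts.

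Proteins of the MAX network bind DNA as pairs with MAX, or in the case of MondoA with MLX, and recognise the E-box CACGTG. MYC and MYCN with MAX raise transcription of genes for growth and ribosome production, and MYC is a common driver of leukaemia. MXD1, MXD3, MXD4 and MNT compete for MAX and for the same sites and recruit the SIN3-HDAC corepressor, while MGA works within a Polycomb complex. MXD1 is known for rising as myeloid cells stop dividing and mature.

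The promoter windows of 3 antagonist genes are shown because the E-box is the site that MYC and its antagonists share, and because these genes moved in opposite directions. Each is the 250 bases before the RefSeq start (GRCh38.p14), 5′ to 3′ on the gene's strand, with any CACGTG in capitals. The windows are MXD1 at chr2:69914859-69915108 (plus strand), MXD4 at chr4:2262110-2262359 (minus strand) and MNT at chr17:2401061-2401310 (minus strand).
MXD1: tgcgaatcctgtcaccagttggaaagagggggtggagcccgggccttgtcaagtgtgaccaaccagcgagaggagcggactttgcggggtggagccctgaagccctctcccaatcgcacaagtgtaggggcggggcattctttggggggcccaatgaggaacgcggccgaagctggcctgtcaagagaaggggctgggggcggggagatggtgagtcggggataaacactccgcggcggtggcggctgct
MXD4: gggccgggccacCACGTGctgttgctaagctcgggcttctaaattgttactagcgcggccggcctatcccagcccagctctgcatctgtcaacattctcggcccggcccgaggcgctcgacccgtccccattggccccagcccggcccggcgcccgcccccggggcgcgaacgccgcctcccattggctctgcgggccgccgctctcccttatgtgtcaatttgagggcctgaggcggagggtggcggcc
MNT: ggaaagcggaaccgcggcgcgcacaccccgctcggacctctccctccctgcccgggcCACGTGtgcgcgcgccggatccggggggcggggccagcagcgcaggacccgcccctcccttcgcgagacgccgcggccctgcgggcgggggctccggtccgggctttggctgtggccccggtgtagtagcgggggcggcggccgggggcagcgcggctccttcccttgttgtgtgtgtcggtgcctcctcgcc

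MXD4 holds 1 CACGTG, whose first base lies 238 bases before the start, and MNT holds 1 at 193 bases. None lies in the MXD1 window, nor in those of MYCN, MXD3, MGA and MLXIP. The 7 genes searched have 9 windows in all, since MGA has 3 starts, and 2 of the 9 hold the motif. Over all 35116 RefSeq windows of this length, 6.34% hold CACGTG, and over the 6330 windows of genes tested here 9%. The RUNX core motif was searched as TGTGGT and on the other strand as ACCACA, which does not overlap CACGTG. It lies in 2 of the 3 MGA windows and in none of the other 6. Of all windows 11% hold it, and of the windows of genes tested here 8.69%. A match is a run of letters and says nothing of binding in these cells.

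Values are FPKM, fragments scaled to transcript length and library size, so levels of different genes can be set side by side. Depth per library is unknown. The table holds a selection of rows: only 4 of the 6230 rows tested changed by less than 0.2 on the log2 scale in either direction. Of those rows, 95.3% passed the threshold of an adjusted p of 0.05 (limma), 46.2% higher and 49.1% lower with AI-10-49, and the libraries of the groups did not overlap in 96.2%. A call is therefore the usual state of a row in this table, and sizes carry more information than counts. AI-10-49 replicate 2 stood apart among abundant rows. Its median log2 ratio to the mean of the other AI-10-49 libraries was -0.99 over 294 rows of at least 100 FPKM. Over 1414 rows between 30 and 100 FPKM the median was -0.30, and 1406 of them were lower in replicate 2. Over 3741 rows between 3 and 30 FPKM it was 0.05. The highest value of replicate 2 was 159 FPKM, beside 1843 and 1877 FPKM in AI-10-49 replicates 1 and 3. All network genes lay between 3.94 and 27.9 FPKM in the AI-10-49 libraries. Myeloid identity genes were present: 13 of 20 had a row, among them SPI1, CEBPA and KIT. The summed level of the 13 was 958 to 1090 FPKM with DMSO and 384 to 556 with AI-10-49, where 384 was replicate 2. Of the 13, 11 were lower, PTPRC was higher (log2 fold change 0.61) and SPI1 did not pass (limma adjusted p = 0.142). Without AI-10-49 replicate 2, 12 were lower and 1 higher. Of 5 markers each, 2 T cell genes (sum 32.6 to 34.3 FPKM with DMSO and 16.9 to 17.2 with AI-10-49), 2 B cell genes (24.8 to 30 and 8.72 to 10.6), 1 erythroid gene (8.76 to 9.6 and 3.28 to 4) and 1 megakaryocyte gene (6.13 to 6.68 and 3.08 to 3.74) had a row. None of the marker genes with a row had a group mean of 0, and the fibroblast and epithelial markers were not analysed here. The part of these shifts in the results below was not tested. In bulk RNA, fewer cells of a type and less RNA per cell cannot be told apart.

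With AI-10-49, MYC and MYCN fell, MXD1 rose, and MXD3, MXD4, MNT, MGA and MLXIP fell. All 8 network genes passed the threshold, 1 higher and 7 lower, and none of their groups overlapped. This is close to the 95.3% of all rows that passed. Their median log2 fold change was -0.57, beside -0.28 over all rows tested. Permuting the 6 libraries of a gene in all ways gave an exact two-sided p of 0.1 for each of the 8, and no design of 3 against 3 can go lower. The labels call the experiments independent but name no separate cultures, so p-values measure the spread between these libraries.

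**Figure D1:**
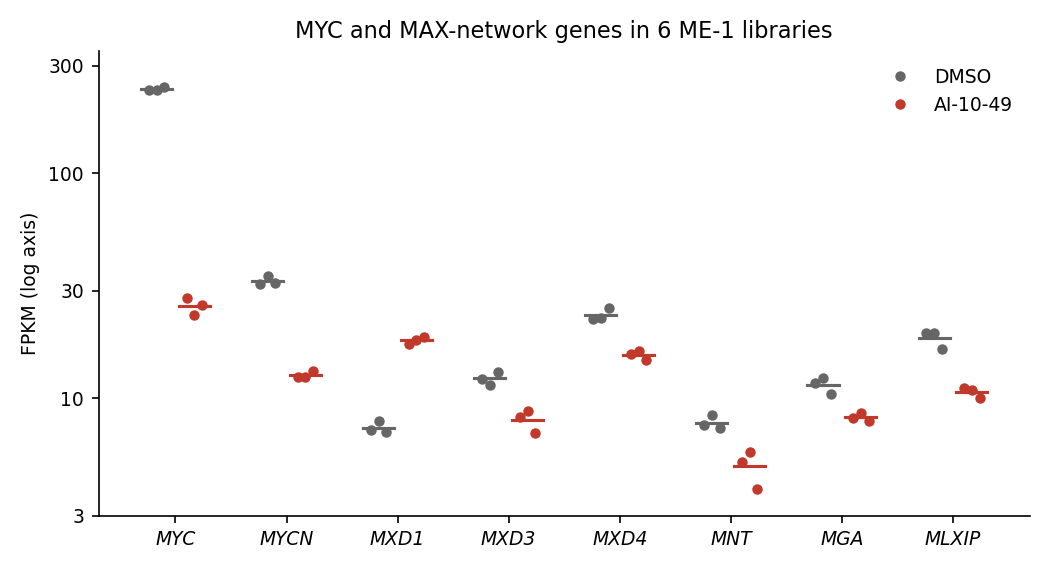
FPKM on a log axis of the 8 network genes in the 3 DMSO (grey) and 3 AI-10-49 (red) libraries, 1 point per library in the order of replicates 1 to 3, with horizontal lines at the group means. MYC dropped from a mean of 237 to 25.7 FPKM, MXD1 is the 1 gene whose red points lie above the grey ones, and no gene's groups overlap.

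MYC stood at 235, 233 and 242 FPKM in DMSO replicates 1 to 3, and at 27.9, 23.4 and 25.8 FPKM in AI-10-49 replicates 1 to 3. The DMSO libraries were nearly level, and the lowest of them was 8.37 times the highest AI-10-49 library. The mean with AI-10-49 was 10.8% of that with DMSO. On the log2(FPKM + 1) scale the change was -3.16 ± 0.14 (SE, 95% interval -3.47 to -2.85), the largest fall of all 6230 rows tested on that scale, followed by CLC at -2.67 and PLD6 at -2.51. With a pseudocount of 0.1 PLD6, a row of low FPKM, fell more (-3.27) than MYC (-3.20). MYC ranked 81st by level among these rows with DMSO and 1965th with AI-10-49, while it was still the most abundant of the 8 network genes.

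MYCN encodes a paralog that can stand in for MYC on the same sites. Its level was 32.1, 34.8 and 32.6 FPKM with DMSO and 12.4, 12.4 and 13.2 FPKM with AI-10-49. All AI-10-49 libraries were low and close together, with a coefficient of variation of 3.74%. The mean fell 2.62-fold, or by a log2 difference of -1.32 ± 0.06 (SE, 95% interval -1.46 to -1.18, limma adjusted p = 1.85e-09). This interval does not meet that of MYC. MYC was 7.14 ± 0.39 times as abundant as MYCN with DMSO and 2.03 ± 0.196 times with AI-10-49 (SD, n = 3). Summed, the MYC and MYCN rows gave 267, 268 and 275 FPKM with DMSO and 40.2, 35.8 and 39 FPKM with AI-10-49. MYCN shares exon bases with the antisense gene MYCNOS, and the labels do not say that counting used strand.

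MXD1, the antagonist tied to myeloid maturation, was the 1 network gene that rose. It stood at 7.19, 7.94 and 7.03 FPKM with DMSO and at 17.4, 18.2 and 18.7 FPKM with AI-10-49. Every AI-10-49 library was above every DMSO library by at least 2.19 times. The mean rose 2.45-fold, from 7.38 ± 0.48 to 18.1 ± 0.66 FPKM (SD, n = 3), and the log2 difference was 1.19 ± 0.07 (SE, 95% interval 1.05 to 1.33, limma adjusted p = 6.24e-09). Only 3.48% of the rows tested had a higher log2 fold change. Without AI-10-49 replicate 2 the change was again 1.19. MXD1 shares exon bases with SNRNP27, a splicing factor gene on the same strand, which went from 17.6 ± 1.37 to 21 ± 0.87 FPKM (log2 fold change 0.25).

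MXD3 and MXD4, the other antagonists of the MXD family measured, went the opposite way to MXD1. MXD4 stood at 22.5, 22.7 and 25.2 FPKM with DMSO and at 15.7, 16.2 and 14.8 FPKM with AI-10-49. MXD3 stood at 12.2, 11.4 and 13.1 FPKM with DMSO and at 8.2, 8.77 and 6.98 FPKM with AI-10-49. Each fell to about the same share of its DMSO mean, 66.5% for MXD4 and 65.2% for MXD3. Their log2 fold changes were -0.56 ± 0.07 (SE, 95% interval -0.71 to -0.41) and -0.56 ± 0.08 (-0.74 to -0.38). MXD3 shares exon bases with PRELID1 on the opposite strand and with RAB24 on its own. PRELID1 changed by -0.62 and RAB24 by 0.34 on the log2 scale, and how far their reads enter the MXD3 value was not tested.

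MNT, a MAX-binding repressor that is present in most cells whether or not they divide, stood at 7.62, 8.38 and 7.34 FPKM with DMSO and at 5.22, 5.74 and 3.94 FPKM with AI-10-49. AI-10-49 replicate 3 was its lowest library, and the AI-10-49 libraries varied more than those of any other network gene (coefficient of variation 18.7%). MGA, a very large protein with a T-box domain beside its MAX-binding domain, stood at 11.7, 12.3 and 10.4 FPKM with DMSO and at 8.16, 8.6 and 7.87 FPKM with AI-10-49. Its log2 fold change of -0.43 ± 0.07 (SE, 95% interval -0.59 to -0.27, adjusted p = 1.18e-04) was the smallest of the 8, and 37.9% of all rows tested lay lower. MNT changed by -0.57 ± 0.10 (SE, 95% interval -0.79 to -0.34). The intervals of MXD3, MXD4, MNT and MGA all overlap one another, and none meets that of MXD1.

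MLXIP encodes MondoA, which pairs with MLX and responds to glucose-derived sugar phosphates, and which is not a MYC antagonist of the MXD kind. It stood at 19.5, 19.5 and 16.6 FPKM with DMSO and at 11.1, 10.9 and 9.98 FPKM with AI-10-49. DMSO replicate 3 was its lowest control and was still 1.49 times the highest AI-10-49 library. The mean fell 1.74-fold, and the change on the log2 scale was -0.74 ± 0.08 (SE, limma adjusted p = 1.29e-06). Its partner gene MLX fell as well, from 29.8 ± 1.92 to 19.9 ± 1.82 FPKM (log2 fold change -0.56 ± 0.08). Of the other E-box factors on the network list, USF1 fell by 0.25 on the log2 scale (adjusted p = 0.0119, or 0.0507 without DMSO replicate 1). USF2 did not pass, at 82.4 ± 2.87 FPKM with DMSO and 66.2 ± 15.3 FPKM with AI-10-49. MAX, MXI1, MYCL and MLXIPL were not analysed here.

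**Figure D2:**
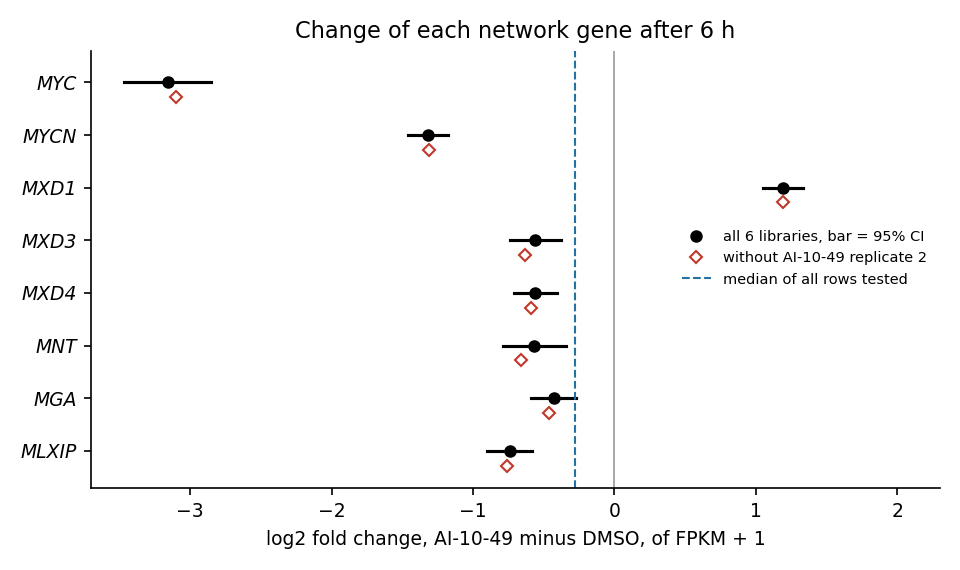
Log2 fold change of each network gene, AI-10-49 minus DMSO on the log2(FPKM + 1) scale, with all 6 libraries (black, bar = 95% interval) and without AI-10-49 replicate 2 (open diamonds); the dashed line is the median of all rows tested, -0.28. MYC lies at -3.16 and MXD1 at 1.19, and the interval of MGA reaches the dashed line.

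The distribution of all rows sets these sizes in context. Among the rows tested, 502 changed by less than -1 and 361 by more than 1 on the log2 scale. MYC and MYCN are among the former, with 3.39% of rows lower than MYCN, and MXD1 is among the latter. MLXIP, MXD3, MXD4, MNT and MGA sit in the body of the falling rows, where 17.4% to 37.9% of all rows lie lower.

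**Figure D3:**
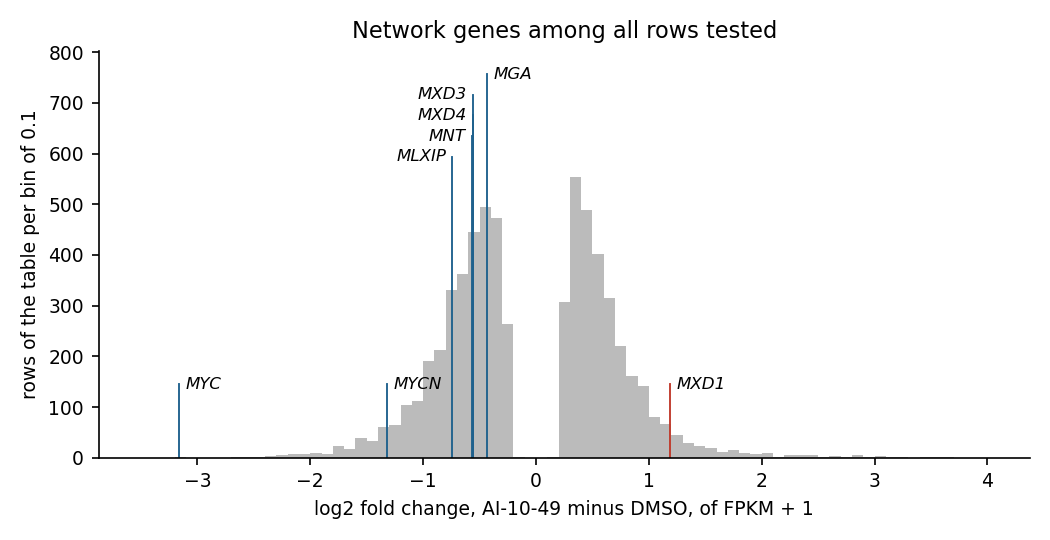
Number of rows per bin of 0.1 in log2 fold change over the 6230 rows tested (grey), with lines at the 8 network genes. The gap around 0 shows that rows with small changes are hardly present in the deposited table, and MYC at -3.16 stands left of every other row.

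Levels were ordered differently in the groups. With DMSO the order was MYC (237 FPKM), MYCN (33.2), MXD4 (23.4), MLXIP (18.5), MXD3 (12.2), MGA (11.4), MNT (7.78) and MXD1 (7.38). The libraries of MXD3 and MGA overlapped, as did those of MNT and MXD1, and the other neighbours were apart. With AI-10-49 the order was MYC (25.7 FPKM), MXD1 (18.1), MXD4 (15.6), MYCN (12.7), MLXIP (10.7), MGA (8.21), MXD3 (7.99) and MNT (4.97), and only MGA and MXD3 overlapped. MXD1 thus moved from the lowest mean to the one next to MYC.

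The summed level of the 5 antagonist genes changed little beside that of MYC. It was 61.1, 62.7 and 63 FPKM in the DMSO libraries and 54.7, 57.6 and 52.3 FPKM in the AI-10-49 libraries, a mean of 62.3 ± 0.995 against 54.9 ± 2.63 FPKM (SD, n = 3). The groups were apart, and AI-10-49 replicate 2 was the highest of its group. Without MXD1 the sum of the other 4 went from 54.9 ± 1.01 to 36.7 ± 2.92 FPKM. MXD1 made up 11.9% ± 0.751 of the antagonist sum with DMSO and 33.1% ± 2.35 with AI-10-49, while MXD4 went from 37.6% to 28.4%.

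MYC relative to the sum of the 5 antagonist genes measured went from above 1 to below 1 in these transcript levels. Network genes not analysed here, such as MXI1, are not in that sum, so the position relative to 1 holds for it alone. The ratio of MYC to the antagonist sum was 3.84, 3.72 and 3.84 with DMSO and 0.509, 0.406 and 0.493 with AI-10-49, an 8.1-fold lower mean. With MYCN added to MYC the ratio was 4.33 ± 0.05 and 0.701 ± 0.0687 (SD, n = 3). Expressed as log2(MYC + 1) minus the mean log2(FPKM + 1) of the antagonists, the balance was 4.27, 4.21 and 4.31 with DMSO and 1.39, 1.07 and 1.40 with AI-10-49. The difference of -2.97 was far larger than the SD within groups (0.05 and 0.19), and it was -2.60 when the libraries were quantile normalized. No p is given, since the genes of this balance were chosen with results of these libraries known. These are transcript ratios and not amounts of protein.

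Each antagonist set singly against MYC showed the same direction with different sizes. The ratio of MYC to MXD1 went from 32.2 ± 2.55 to 1.42 ± 0.163 (SD, n = 3), a 22.7-fold lower mean. For MXD3, MXD4, MNT and MGA the ratio of MYC to the antagonist was 5.74-fold (MNT) to 6.63-fold (MGA) lower. MYCN stood above MXD1 in all DMSO libraries (ratios 4.46, 4.39 and 4.64) and below it in all AI-10-49 libraries (0.71, 0.68 and 0.705).

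**Figure D4:**
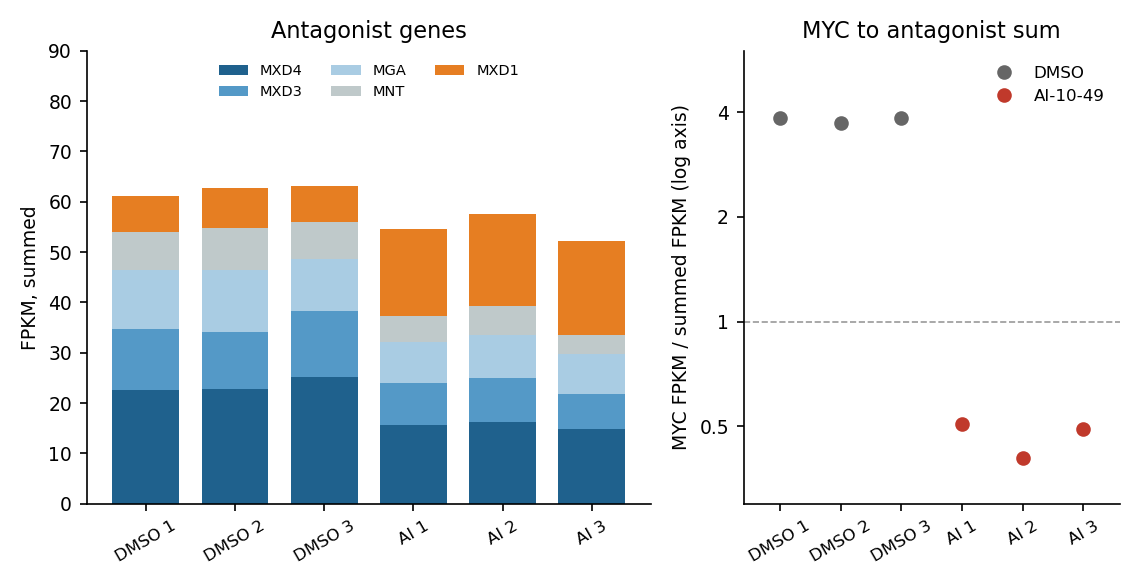
Left, FPKM of the 5 antagonist genes stacked for each library (DMSO 1 to 3, and AI for AI-10-49 1 to 3). Right, MYC FPKM divided by that sum on a log axis, with a dashed line at 1. The stacks differ little in height (52.3 to 63 FPKM) while MXD1 (orange) widens, and the ratio lies at 3.72 to 3.84 with DMSO and at 0.406 to 0.509 with AI-10-49.

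The rows most like MYC and MXD1 were sought by the root mean square difference over the 6 libraries, after subtracting each row's DMSO mean on the log2(FPKM + 1) scale. Nearest to MYC were CLC, an eosinophil protein gene (0.37), PLD6, of a mitochondrial phospholipase (0.49), ITPRIPL1 (0.52), TMEM121 (0.54) and LRFN4 (0.54). In mean FPKM these rows fell 5.86-fold (LRFN4) to 10.4-fold (PLD6), beside 9.22-fold for MYC. PLD6 went from 10.3 to 0.985 FPKM, so it passed the filter only through its DMSO level, and its fold rests on a low value. Nearest to MXD1 were SLC9A8, of a sodium-proton exchanger (0.04), SLC45A4 (0.05), ZC3H12C (0.05), MCTP1 (0.05) and CHN2 (0.06). SLC9A8, SLC45A4, ZC3H12C and MCTP1 rose 2.44-fold to 2.56-fold in mean FPKM, beside 2.45-fold for MXD1. CHN2 rose 4.88-fold, from 0.451 to 2.2 FPKM, and so passed the filter only through its AI-10-49 level; the pseudocount of 1 brings it near MXD1. The measure uses the treatment difference itself and describes likeness on the log2(FPKM + 1) scale only.

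Of 64 listed genes described as activated by MYC, 45 had a row and were measured. Whether the rest changed cannot be seen, since the deposited rows are a selection with few small changes. This limit holds for every list below. Among the 45 measured genes, 40 fell, none rose and 5 did not pass. Over all rows tested 49.1% fell and 46.2% rose. The median log2 fold change of the 45 was -1.08 beside -0.28 over all rows tested. The largest changes were in the cell cycle phosphatase gene CDC25A (-1.97), the folate carrier gene SLC19A1 (-1.93), the nucleolar gene NOP16 (-1.80) and the spermidine synthase gene SRM (-1.73). CDC25A went from 21.6 ± 0.223 to 4.75 ± 0.256 FPKM (SD, n = 3). Without AI-10-49 replicate 2, 44 fell and 1 rose, SHMT2 (109 ± 5.19 and 166 ± 65.3 FPKM with all libraries). The median of the activated genes was then -0.94, beside -0.21 over all rows tested. Of 24 listed genes described as repressed by MYC, 14 were measured and went both ways, 6 higher and 7 lower (median -0.05). Leaving out AI-10-49 replicate 2 gave 7 higher and 7 lower, with a median of 0.07. The stress factor gene DDIT3 (2.81), the CDK inhibitor gene CDKN1A (2.36) and GADD45B (1.46) rose, and the cyclin gene CCND1 fell by 2.05 on the log2 scale.

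Most MondoA target genes measured rose while MLXIP fell. Of 7 listed genes 5 were measured, and 4 rose. These were the arrestin-like genes ARRDC3 (1.81), ARRDC4 (0.80) and ARRDC2 (0.43, named after its value was seen) and the repressor gene KLF10 (0.85). The hexokinase gene HK2, which is also on the list of MYC-activated genes, fell by 0.58 on the log2 scale. The median of the 5 was 0.80, beside -0.28 over all rows tested, of which 46.2% rose and 49.1% fell. TXNIP was not analysed here.

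Genes of the partners through which these proteins act went both ways. Of 22 listed SIN3-HDAC corepressor genes, which serve MXD1, MXD3, MXD4 and MNT, 11 were measured, and 4 rose and 7 fell (median -0.43). Leaving out AI-10-49 replicate 2 kept these counts and gave a median of -0.30. Over all rows tested 46.2% rose and 49.1% fell, with a median of -0.28 (-0.21 without that replicate). SAP30 (0.90) and ARID4A (0.88) rose, and FAM60A (-0.88, or -0.51 after quantile normalization) and SIN3B (-0.77) fell. SIN3B, which encodes a scaffold that MXD proteins bind, went from 18.3 ± 0.859 to 10.4 ± 0.349 FPKM (SD, n = 3). In the Polycomb complex that holds MGA, YAF2 (0.99), RNF2 (0.49) and RYBP rose, and WDR5 (-1.15) and TFDP1 (-1.07) fell, of 5 measured. Of 11 genes listed for that complex 6 were in the deposited rows, and only these 5 had a single row that was tested. RYBP, at 0.43, was named after its value was seen.

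Of 19 listed MYC cofactor genes 14 were measured, and 7 rose and 6 fell, with a median of -0.03. Leaving out AI-10-49 replicate 2, 7 rose and 7 fell, with a median of 0.05. ACTL6A (-1.22), WDR5 (-1.15), which helps place MYC on chromatin, and the acetyltransferase gene KAT2A (-0.82) fell, and CDC73 (0.68), of the PAF elongation complex, rose. Of 26 symbols listed for MYC protein turnover 12 were measured, and 4 rose and 7 fell (median -0.33 beside -0.28 over all rows tested). Leaving out AI-10-49 replicate 2, 5 rose and 7 fell (median -0.23 beside -0.21). Over all rows tested 46.2% rose and 49.1% fell. The ubiquitin ligase genes SKP2 (-0.76) and STUB1 (-0.60) fell, and the deubiquitinase gene USP22 (0.52) rose. SET, an inhibitor of the phosphatase that marks MYC for decay, fell by 0.65 on the log2 scale (limma adjusted p = 0.0477). It lost that call when any 1 DMSO library was left out (adjusted p 0.115 to 0.148), and it changed by -0.37 without AI-10-49 replicate 2.

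For proteins that act on MYC transcription or mRNA, 20 genes were listed and 11 measured. Of these, 7 fell and 2 rose (median -0.58 beside -0.28 over all rows tested). Leaving out AI-10-49 replicate 2, 8 fell and 3 rose (median -0.47 beside -0.21). Over all rows tested 49.1% fell and 46.2% rose. ZFP36L2 and ZFP36 encode related proteins that bind AU-rich elements and promote mRNA decay, and they moved oppositely: ZFP36L2 fell from 120 ± 4.22 to 28.3 ± 2.97 FPKM (log2 fold change -2.06), and ZFP36 rose from 10.8 ± 0.393 to 22 ± 0.19 FPKM (0.96). E2F1, a transcription factor of S phase entry, fell by 1.41 on the log2 scale. HNRNPD, which binds AU-rich elements too, changed by -0.94 with all libraries and by -0.59 without AI-10-49 replicate 2.

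**Figure D5:**
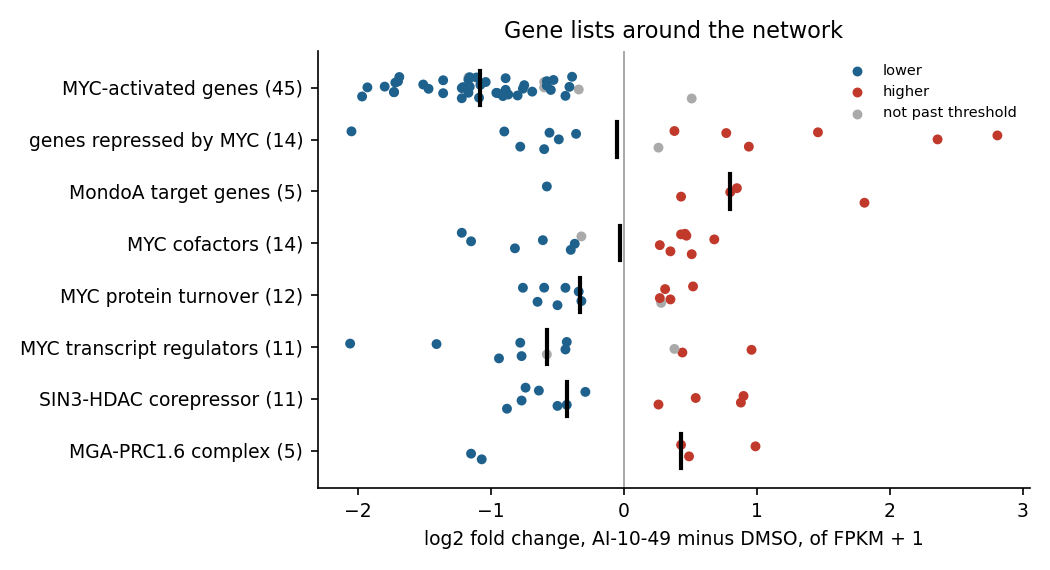
Log2 fold change, AI-10-49 minus DMSO on the log2(FPKM + 1) scale, of each measured gene on 8 lists (number measured in brackets), blue for lower, red for higher and grey for not past the threshold, with black bars at list medians; vertical scatter within a list has no meaning. MYC-activated genes lie almost all to the left (median -1.08, or -0.94 without AI-10-49 replicate 2), and the lists of repressed genes, cofactors and partners lie on either side of 0.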

How the data were processed

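Total RNA of 6 ME-1 libraries (TruSeq RNA kit, 90 bp paired-end reads) was sequenced, per the labels' protocols. Bowtie2 2.1.0 and Cufflinks 2.2.0 are named in the submitters' processing notes, as are Cuffdiff and the build hg19. The deposited table gives FPKM per library for 6339 rows, and no source used here gives the rule that selected them. FPKM were not turned back into reads: ratios of 223 low rows between DMSO libraries lay within 0.5% of small whole-number ratios in 33.6% to 39% of rows, beside 31.5% to 32.4% after random jitter.

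log2(FPKM + 1) was fitted with limma 3.58.1 in R 4.3.3 (mean-variance trend, two-sided, Benjamini-Hochberg over the 6230 rows where a group's mean reached 1 FPKM; 109 left out). The pseudocount understates changes of low rows. The fit was tested on simulated data. Fold changes quoted as folds are ratios of mean FPKM. As alternatives, the pseudocount was set to 0.1 or 0.5, the filter was dropped or raised to 5 FPKM, libraries were scaled by quantiles or medians, a replicate block was added, the trend was dropped, and each library was left out. Exact permutation tests used SciPy 1.17.1, tables pandas 2.3.3 in Python 3.11.15 and plots Matplotlib 3.10.9.

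The network genes and lists were chosen with earlier results of these data known. Named were the network genes, every other network row, up to 4 genes of largest change past the threshold per list, and the 5 rows nearest to MYC and to MXD1. Promoter windows came from RefSeq (GRCh38.p14), matched by symbol for 7 genes; shared exons came from GENCODE 29. MYC's window was not searched.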

Additional observations from a re-analysis of the deposited data

How the results depend on the processing

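All 8 network genes kept their direction and stayed past the threshold under all 15 alternatives. MYC ranged from -3.22 to -2.82, MXD1 from 1.16 to 1.29 and MGA from -0.50 to -0.38 on the log2 scale, and the highest adjusted p of any network gene was 0.00328 (MNT, limma without the trend). The MYC to antagonist balance of -2.97 was -2.60 under quantile normalization, -2.75 under quantile normalization without AI-10-49 replicate 2, and -3.03 to -2.87 when single libraries were left out. Quantile normalization moved the median of all rows from -0.28 to -0.06, so changes relative to the median moved. MYC lay at -2.88 relative to the median of the deposited values and at -2.76 after quantile normalization, MXD1 at 1.47 and 1.21, MYCN at -1.05 and -1.24, and MLXIP at -0.47 and -0.71. MGA lay at -0.16 and -0.43, MXD4 at -0.28 and -0.49, and MXD3 and MNT at -0.29 and -0.55. Rows past the threshold numbered 5730 to 6067 on leaving out each library in turn, and 5018 to 6037 otherwise. Of 600 values for 40 named genes, 594 kept their call and direction, 6 lost the call (SET and USF1) and none reversed. Under quantile normalization SET changed by -0.09 (adjusted p = 0.106), USF1 by -0.15 and HNRNPD by -0.44.

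With the replicate number as a block, 6015 rows passed, and it changed no call of a network gene. Same-numbered libraries deviated together with r of -0.15, 0.15 and 0.25 across rows, and not every library correlated best with its own number, so numbers were not treated as pairs. Without the depth, counting error of the low values cannot be given.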
